A study of Drosophila melanogaster with 15 samples.

Results

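In 75 probe sets of the array the signal was lower on every pri and every svb mutant array than on any wild-type (wt) array, and these probe sets do not appear in the table of selected genes that the authors deposited. They were taken from the 8631 probe sets whose mean log2 signal reached 5 (that is, a signal of 32) in 1 genotype or more. All pri arrays lay below all wt arrays in 1224 of them (14.2%) and all svb arrays did so in 350 (4.06%). No overlap in both mutants was seen in 89 (1.03%), and 14 of the 89 were left out because they stand in the authors' table. With each array centred on its median in place of the authors' scaling, 44 unlisted probe sets met the rule, of which 37 were among the 75. The count of 75 follows from that rule and is not evidence for a shared response, since the same 15 arrays chose the members. For the same reason the differences between each mutant and wt are given below as descriptions, without a test.

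Each sample held the RNA of 200 intact embryos of Drosophila melanogaster aged 13 to 15 h at collection, and there were 5 samples per genotype with 1 array each. The mutant groups were pri -/- embryos (allele pri1) and svb -/- embryos (allele svbR9), and the third group was wt embryos, whose strain is not given in the sources used here. Mutant embryos were picked by hand with the fluorescent balancer chromosomes over which the stocks were kept, so that product supplied by the mother may remain. The sex of the embryos is not stated for any group. Whether sex differed between the groups, and with it the signals, was not tested. Of 7 marker genes fixed for the epidermis, 5 have a name in the authors' table (dyl, ect, m, sha and CG12063), with mean wt signals between 121 and 1985. Markers of other tissues were not analysed by name.

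The gene shavenbaby (svb) encodes a zinc finger transcription factor of the Ovo family that switches on the formation of trichomes, apical cell extensions packed with actin that cover parts of the larva. The gene pri (also called tarsal-less or polished rice) encodes small peptides that trigger the removal of the amino-terminal part of Svb and so turn it from a repressor into an activator. Without pri the repressor form persists, whereas without svb neither form is made. A probe set is a group of short probes on the array that are read together as 1 signal for a transcript. The files do not pair the probe sets outside the authors' table with genes, so that the members carry no gene name here and their roles are unknown. Members are numbered 1 to 75 by the share of the wt signal left in svb mutants, lowest first.

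The extent of the decrease ranged widely among the members. The mean signal left in pri mutants was between 0.421% and 79.1% of wt with a median of 52.8%, and in svb mutants it was between 0.554% and 83.0% with a median of 51.0%. With mutant means under 32 counted as 32, the medians were 57.7% in pri and 57.1% in svb. Less than 25% of the wt signal remained in pri for 9 members and in svb for 12, of which 5 were under 25% in both mutants. Most of these counts rest on mutant signals under 32, and with such means counted as 32 there was 1 member under 25% in pri (member 2) and 3 in svb (members 2, 6 and 9). At the other end 42 members kept more than 50% of wt in pri and 38 did so in svb, and 30 of them kept more than 50% in both. In whole embryos, fewer cells of a type and less RNA per cell cannot be told apart. The wt strain is not given, and the part of strain differences in these decreases was not tested.

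**Figure D1:**
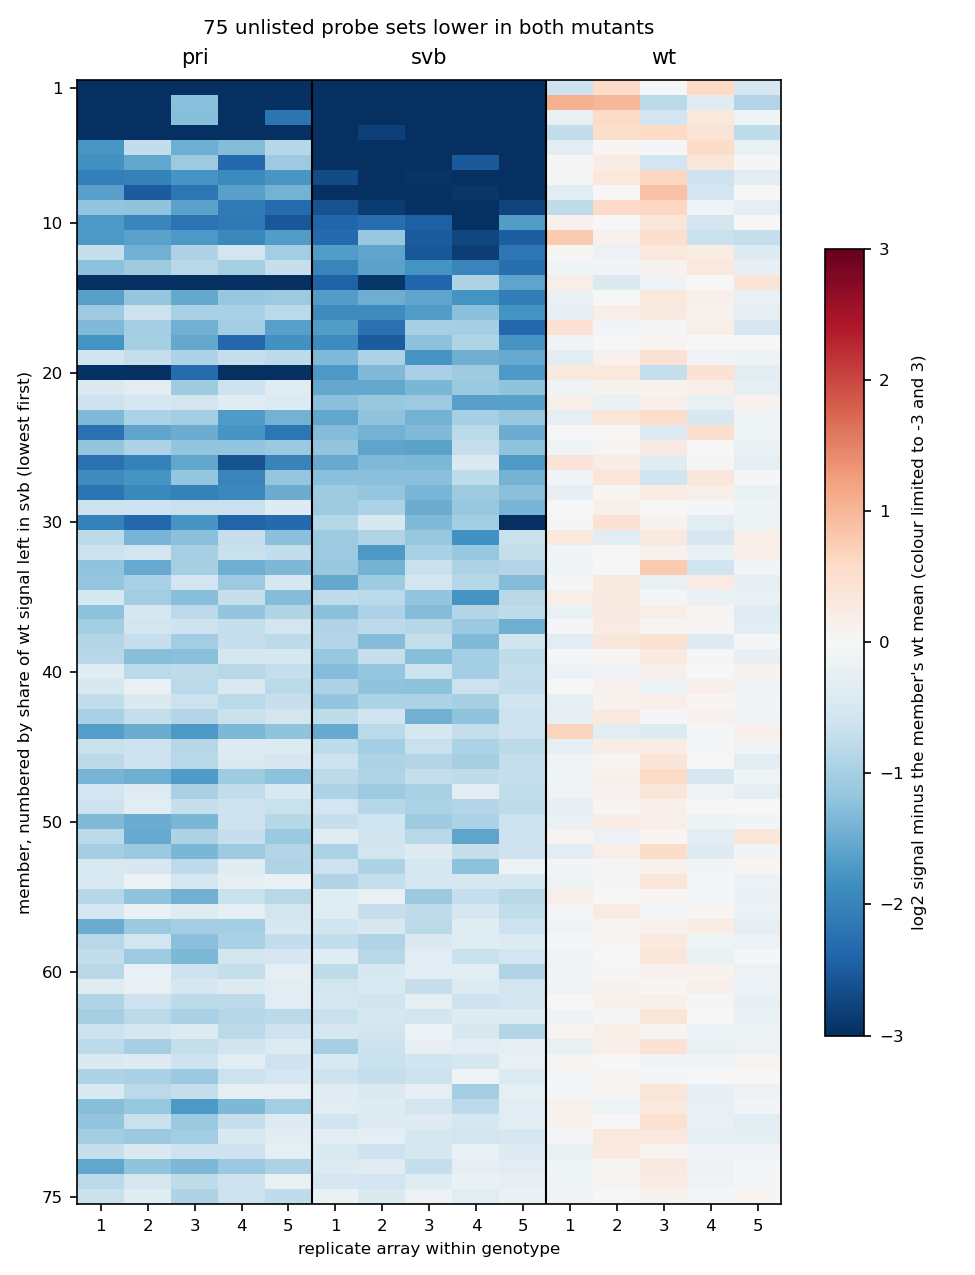
Log2 signal minus the wt mean of each of the 75 members (rows, member 1 at the top) on the 15 arrays (columns, replicates 1 to 5 of pri, svb and wt from left to right). Blue marks signals under the wt mean, the colour is limited to -3 and 3, and under 25% of the wt signal remained in svb for members 1 to 12 at the top.

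Members 1 and 4 were at the bottom of the scale in both mutants. Member 1 (probe set 1639336_at) had signals of 1.27, 0.256, 0.712, 0.164 and 0.256 on the pri arrays and of 0.240, 0.383, 0.398, 0.318 and 2.16 on the svb arrays, against 77.5, 178, 113, 178 and 84.0 on the wt arrays. Every mutant value thus lay far under the level of 32, and every wt value lay above it. Because signals so low have no reliable ratio, the decrease is given as a bound against 32, at least 3.70-fold in either mutant. Member 4 (probe set 1625063_a_at) had 3.32, 1.90, 0.468, 4.38 and 4.69 in pri and 2.32, 7.32, 0.378, 4.14 and 0.161 in svb, against 30.4, 73.5, 76.8, 66.8 and 29.8 in wt. It was at least 1.59-fold lower in either mutant, and its own wt signal dropped just under 32 on 2 arrays. Identifiers are given for these members because the smaller of their 2 log2 decreases was the largest, a ranking that rests on signals under 32. By the bound, member 2 was further from wt, at least 6.92-fold lower in either mutant.

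Members 2 and 3 were also under 32 on average in both mutants, and their pri arrays varied widely. The pri signals of member 2 were 4.81, 9.72, 93.4, 4.87 and 14.3 and its svb signals 2.24, 2.51, 5.26, 8.07 and 1.58, against 462, 445, 127, 171 and 119.8 in wt. Replicate 3 of pri was the highest pri array and the one closest to wt. In member 3 the same pri array was again the highest, with 1.18, 5.40, 19.7, 2.63 and 10.4 in pri, 1.94, 2.93, 1.44, 0.794 and 0.611 in svb, and 40.7, 71.6, 31.7, 59.5 and 43.6 in wt.

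Among members 5 to 10 the svb signal was 7.18% to 19.2% of wt and the pri signal 23% to 43.3%. In members 5, 7, 8 and 10 both mutant means lay under 32, as did the svb mean of member 6. Their shares based on such means are not reliable ratios. By the bound against 32, members 5, 7, 8 and 10 were at least 2.14-fold, 1.28-fold, 2.17-fold and 2.99-fold lower in either mutant. Member 6 had 58.3, 69.4, 97, 40.3 and 96.7 in pri and 16.5, 15.4, 17.8, 35.9 and 20.4 in svb, against 212, 240.2, 137, 265 and 199 in wt. Its svb arrays lay under its pri arrays, and both under wt. Member 9, the brightest of these 6 in wt, had 141, 139, 106, 73.8 and 64.9 in pri and 53.0, 44.8, 41.6, 33.0 and 47.3 in svb, against 189.9, 482, 492, 295 and 263 in wt, so that all 3 genotypes were separate. Member 10 had means of 22.5 ± 4.71 in pri, 18.7 ± 7.79 in svb and 97.7 ± 21.1 in wt (SD, n = 5), and its 2 mutant groups overlapped.

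**Figure D2:**
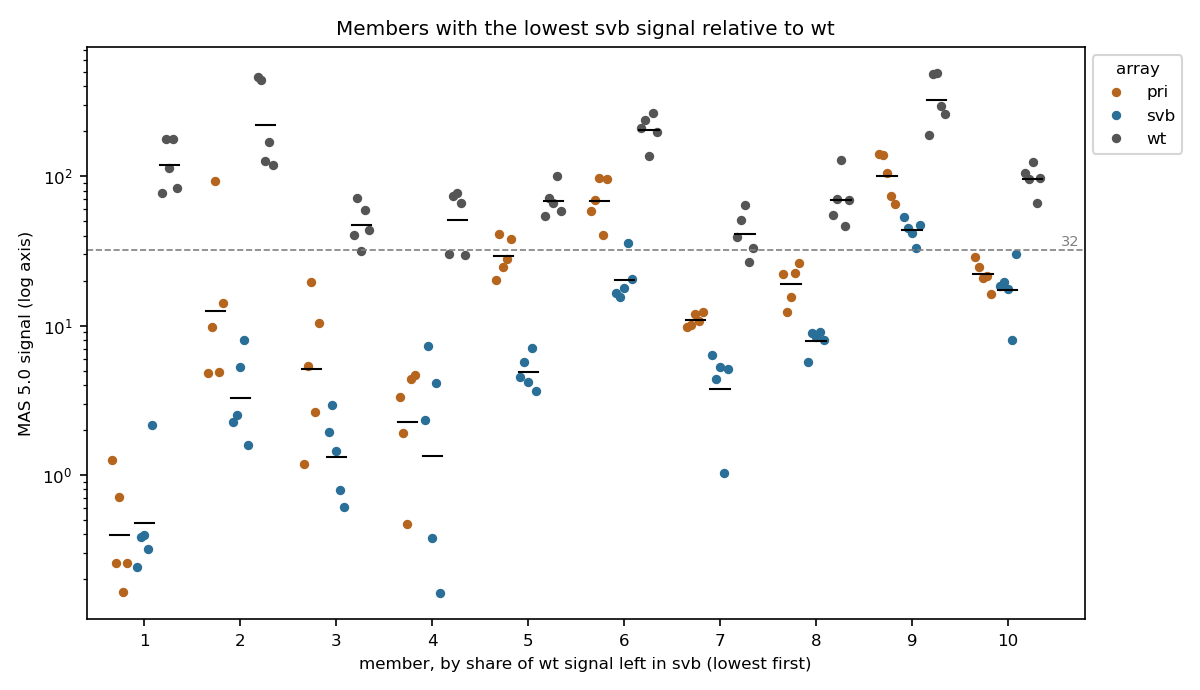
MAS 5.0 signal (log axis) of members 1 to 10 on each array, with pri left, svb in the middle and wt right; black bars are geometric means of 5 arrays and the dashed line is the level of 32. The wt means lie above the line in all 10 members, both mutant means lie under it in 8, and in member 9 both lie above it.

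The 10 members with the least signal left in pri shared 6 with the 10 lowest in svb. The other 4 were members 14, 20, 26 and 30, with 2.40% to 23.6% of wt in pri and 26.9% to 43.8% in svb. Shares from means under 32 are not reliable ratios, and both mutant means of members 14, 20 and 30 and the pri mean of member 26 were such. By the bound against 32, members 14, 20 and 30 were at least 1.07-fold, 1.82-fold and 1.14-fold lower in either mutant. Member 14, whose wt signal was itself close to 32, had 0.548, 0.301, 1.46, 1.14 and 0.741 in pri and 6.36, 4.56, 6.63, 18.1 and 11.4 in svb, against 38.7, 25.4, 31.9, 34.1 and 44.6 in wt. Member 20 had 7.51, 6.09, 11.8, 4.89 and 7.20 in pri and 17.6, 23.1, 29.5, 27.6 and 17.7 in svb, against 71.2, 72.7, 35.6, 79.1 and 45.7 in wt. In both the pri arrays lay under the svb arrays and these under the wt arrays, with all 10 mutant values below 32. Member 26 had 16.9, 19.4, 26.9, 13.0 and 19.7 in pri and 27.9, 31.5, 31.4, 58.5 and 24.6 in svb, against 104, 93.5, 61.4, 81.6 and 65.2 in wt, and its svb replicate 4 came closest to wt.

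How far a mean can be followed depends on brightness. The mean log2 signal was under 5 in both mutants for 20 members, in svb but not pri for 5 and in pri but not svb for 2, which leaves 48 with both mutant means at or above this level. In those 48 the median was 57.8% of wt in pri and 57.2% in svb. The mean wt signal of the members was between 32.8 and 1732 with a median of 129, against a median of 136 over all tested probe sets. The 5 brightest members in wt (wt signals of 780.3 to 1732) retained 38.7% to 77.6% in pri and 30.8% to 70.2% in svb. Brightest was member 61, with 1347, 1471, 1222, 1326 and 1357 in pri and 1174, 1256, 1070.5, 1291 and 1187 in svb, against 1572, 1848, 1805, 1904 and 1531 in wt. Its mutant groups overlapped with each other and came close to wt. Member 33, the next but one, varied more within wt, with 454, 366, 523, 378 and 411 in pri and 479, 394, 657, 556 and 566 in svb, against 958, 1063, 1802, 698 and 988 in wt. Its mutant groups also overlapped.

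By the suffix of their identifiers, 9 members (12%) are probe sets that can match transcripts of more than 1 gene (s_at), against 15.6% of all tested probe sets, and 7 (9.33%) match several transcripts of 1 gene (a_at), against 12.9%. The signals of the 9, which include members 22, 61 and 75, cannot be assigned to 1 transcript. The spread between arrays of a genotype, as the residual SD of the log2 signal, had a median of 0.27 in the members and 0.30 over all tested probe sets. The rule favours probe sets with a small spread, so that this value was in part set by it.

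Members near the limit differed little from those just past it. The smallest gaps on the log2 scale between the lowest wt and the highest mutant array were 0.0038, 0.0072 and 0.0073 in members 64, 72 and 56, whose mutant means were 66.2% to 77.0% of wt in pri and 65.5% to 73.3% in svb. The 3 unlisted probe sets that missed it by least overlapped by 0.0021, 0.0031 and 0.0047, with 52.6% to 75.5% of wt in pri and 58.2% to 76.4% in svb.

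The order of the 2 mutants was not fixed by the requirement to lie under wt, but it was not independent of it either, since the same pri and svb values chose the members. Of all tested probe sets 14.2% met the requirement in pri and 4.06% in svb, so that it may favour members with low svb values. The study also picked the genes of its table in part for a further decrease in pri than in svb, so that leaving the table out removed members lower in pri. The calls below therefore describe single members, and their counts are no evidence on the order of the mutants. By limma over all 8631 probe sets, 15 of the 75 members were higher in pri than in svb and 12 were lower at an adjusted p under 0.05. This is 20% and 16% of the members, against 21.5% higher and 24.7% lower over all tested probe sets, so that neither share exceeded the background. With the 14 listed probe sets put back, 15 of 89 were higher (16.9%) and 26 lower (29.2%), and the share lower then exceeded the background. Of the 27 calls, 8 compare mutant means that both lie under 32 (6 higher and 2 lower). The median difference of pri minus svb was 0.09 on the log2 scale over the members and -0.03 over all tested probe sets. Centring each array on its median changed this split to 9 higher and 22 lower members, against 13.3% and 35.4% of all tested probe sets. The median over members was then -0.21 and that of all tested probe sets -0.34. The array medians used for it were 9.82 to 17.5, under the level of 32. Quantile normalisation gave 15 higher and 13 lower members, against 20.8% and 25.8% of all. Its median was 0.009 over the members and -0.05 over all tested probe sets.

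**Figure D3:**
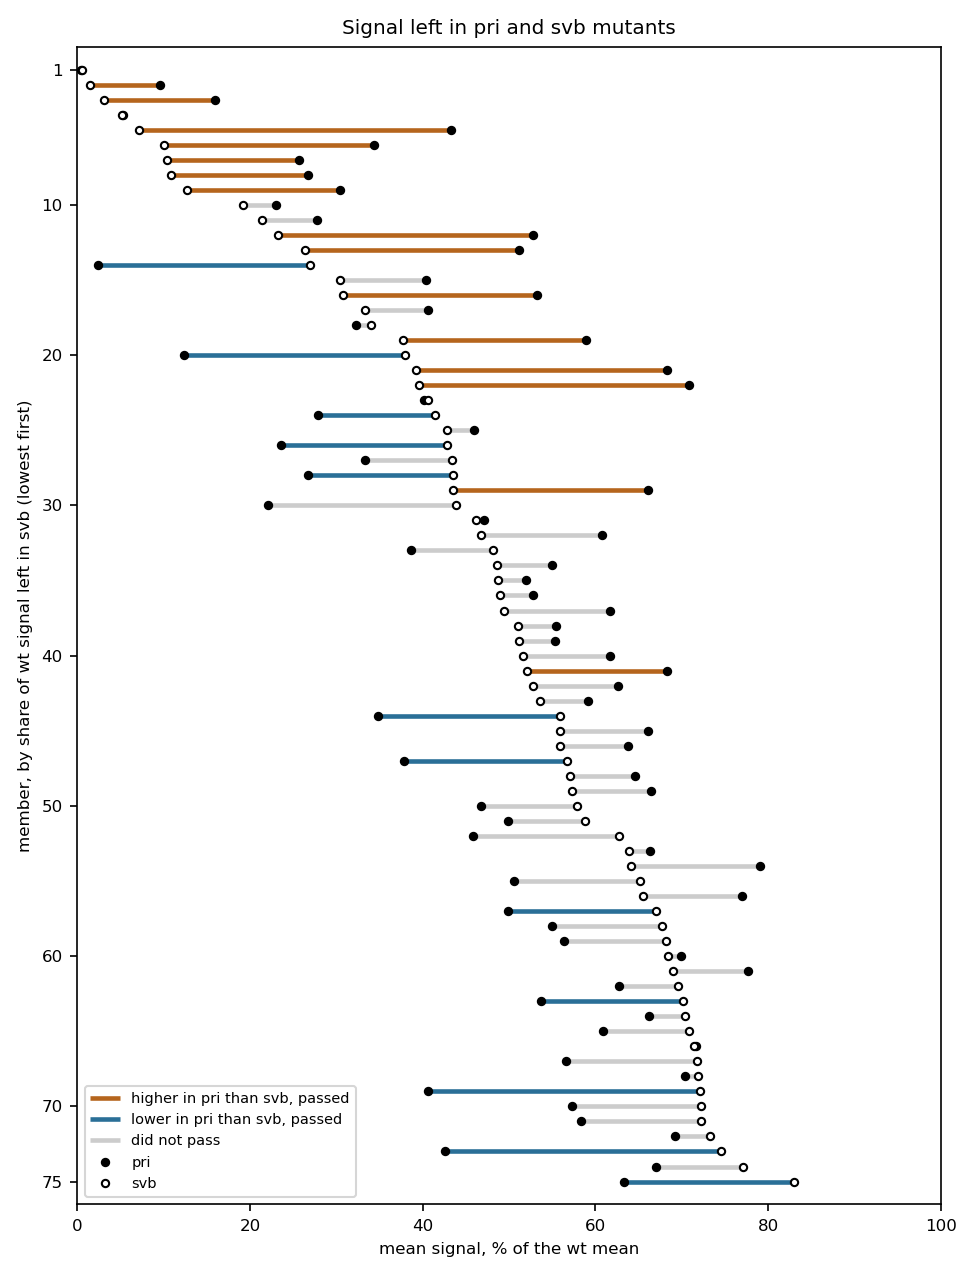
Mean signal of each of the 75 members as a percentage of its wt mean, with filled points for pri and open points for svb, and members ordered from 1 at the top to 75. Lines join both mutants and are brown for the 15 members that passed as higher in pri, blue for the 12 that passed as lower in pri and grey for the 48 that did not pass.

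Restricted to the 48 members with both mutant means at or above 32, 7 were higher and 8 lower in pri than in svb, or 14.6% and 16.7%, against 16.7% and 24% of the 7390 probe sets with both means at this level. The differences were small, from 1.31-fold to 2.30-fold for those higher and from 1.31-fold to 1.78-fold for those lower. Member 9 (values above) had the largest difference among those higher, 2.30-fold (log2 difference 1.20, SE 0.28, limma adjusted p = 0.00216). Member 16, one of the brightest, had signals of 363, 491, 389.7, 393 and 439 in pri and of 207, 209, 240.4, 322 and 223 in svb, against 624, 883, 923, 833 and 639 in wt. Its 5 pri arrays lay above its 5 svb arrays, 1.74-fold apart (limma adjusted p = 0.000654), but the call was lost with median centring (adjusted p = 0.0841). Member 22, an s_at probe set, had 103, 112, 110.3, 125 and 121 in pri and 67.7, 73.1, 75.4, 51.8 and 51.8 in svb, against 179, 138, 179, 137 and 174 in wt, a 1.81-fold difference between the mutants (limma adjusted p = 0.000204). The other 4 were members 19, 21, 29 and 41, between 1.31-fold and 1.72-fold higher in pri, and all 4 lost the call with median centring (adjusted p = 0.154, 0.0930, 0.160 and 0.751). Member 41 lost it also with no filter, with no trend and when pri replicate 1, 2 or 4, svb replicate 1, 2 or 3 or wt replicate 1 or 2 was left out.

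The 8 members lower in pri were 28, 44, 47, 57, 63, 69, 73 and 75. Member 69 showed the largest difference, with 37.7, 41.3, 27.5, 36.1 and 44.3 in pri and 72.5, 70.1, 62.1, 53.4 and 73.8 in svb, against 99.2, 84.1, 113, 78.5 and 85.9 in wt (1.78-fold between the mutants, log2 difference -0.84, SE 0.16, limma adjusted p = 0.000522). Its 3 genotypes were ordered pri, svb, wt without overlap. The same order held in the bright member 73, with 253, 323, 296, 344 and 386 in pri and 565, 581, 454, 619 and 589.6 in svb, against 682, 762, 914, 679 and 732 in wt (1.76-fold between the mutants, limma adjusted p = 0.000185). Member 28 had 93.2, 112, 105, 111 and 151 in pri and 201, 189, 165, 198 and 178 in svb, against 357, 439, 497, 479 and 369.6 in wt, and was 1.65-fold lower in pri than in svb (limma adjusted p = 0.000816). Member 63, the second brightest in wt, was 1.31-fold lower in pri, with means of 922 ± 57.9 in pri, 1206 ± 98.5 in svb and 1719 ± 283 in wt (SD, n = 5; limma adjusted p = 0.0111). Member 47 had 271, 258, 219.6, 338 and 305 in pri and 414, 382, 435, 417 and 439 in svb, against 656, 794, 1082, 502 and 648 in wt. Members 47 and 75, the second an s_at probe set, were 1.51-fold and 1.32-fold lower (limma adjusted p = 0.0105 and 0.0111). Members 44 and 57 (1.57-fold and 1.37-fold, adjusted p = 0.0243 and 0.0441) kept the call in 18 of 23 and 9 of 22 alternative fits. Member 44 lost it without pri replicate 1 or 3, without svb replicate 3 or 5 and with array weights. Member 57 lost it when any of pri replicates 1 to 4, svb replicates 1, 2, 4 and 5 or wt replicates 1 and 2 was left out, and with the replicate block, an offset of 16 or no filter.

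**Figure D4:**
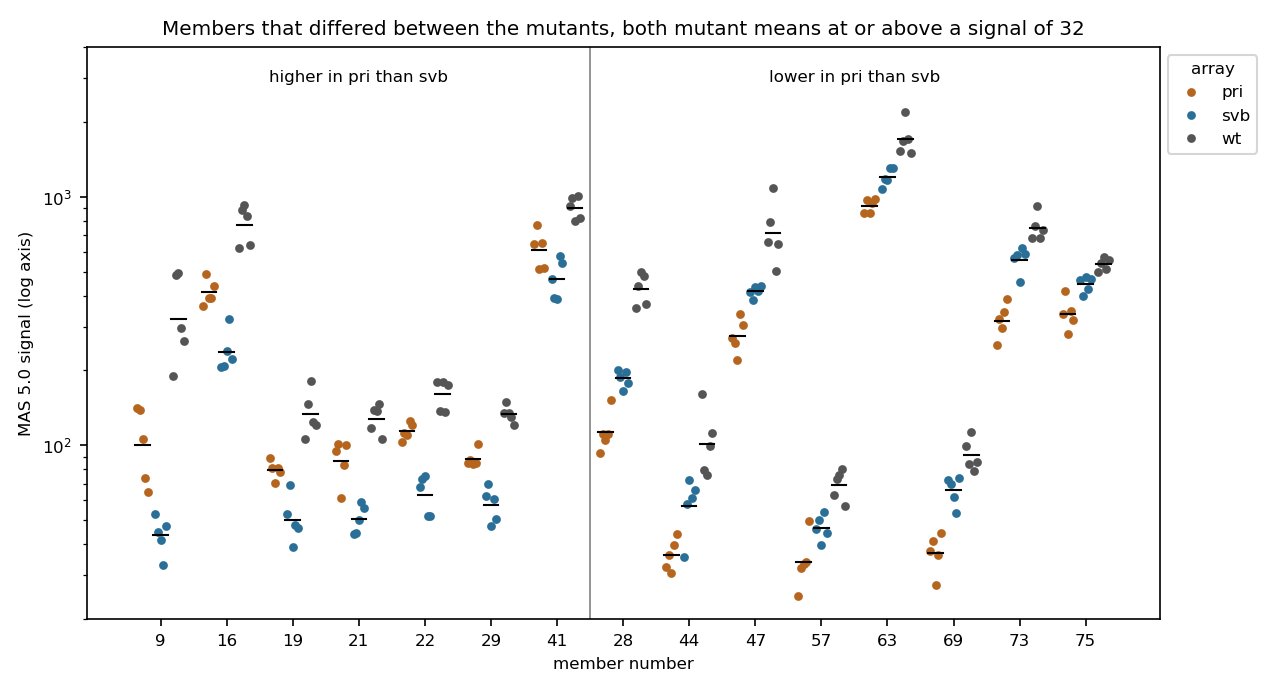
MAS 5.0 signal (log axis) on each array for the 15 members that differed between the mutants with both mutant means at or above 32, with pri left, svb in the middle and wt right in each member; black bars are geometric means of 5 arrays. The 7 members on the left were higher in pri than in svb and the 8 on the right lower, by 1.31-fold to 2.30-fold.

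The remaining 12 members that passed had at least 1 mutant mean under 32, and for 8 of them both were. These 8 (members 2, 3, 5, 7, 8, 12, 14 and 20) entered the fit through wt alone. Neither a fold nor a p between the mutants is given for them, because both mutant means lie under the level that stands in for background. Single arrays could exceed that level. In member 5, for example, signals were 20.3 to 40.8 in pri and 3.62 to 7.13 in svb, against 54.6 to 99.99 in wt. Members 6 and 13 were at least 2.15-fold and 1.20-fold higher in pri than in svb, and members 24 and 26 at least 1.18-fold and 1.03-fold lower. The call of member 24 was lost without pri replicate 1 or 5 or svb replicate 4. The calls of members 2 and 3 were lost without pri replicate 3 or 5 or svb replicate 5, and with an offset of 16. Leaving out svb replicate 1 or 2 ended that of member 2 as well, as did median centring, and leaving out svb replicate 4 or using array weights ended that of member 3.

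Of the 48 members that did not pass, 33 had both mutant means at or above 32. In all 33 the 95% confidence interval of the difference, not adjusted for the number of probe sets, lay within 2-fold either way. The median distance from the estimate to either bound was 0.36 on the log2 scale. For member 61, the brightest, the interval of pri minus svb ran from -0.038 to 0.38, and for member 33 from -0.75 to 0.13. The intervals of members 32 (0.046 to 0.77), 54 (0.013 to 0.59) and 67 (-0.64 to -0.043) left out equal levels. Their adjusted p nonetheless missed the threshold. Differences within these intervals may have been missed, and a p that missed the threshold does not show equal levels.

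The 14 probe sets of the authors' table that met the same rule of no overlap served for comparison. They include sha, needed for trichome formation, miniature (m), which encodes a membrane protein with a zona pellucida domain, CG14395 and CG15370. All 14 were lower in pri than in svb (limma adjusted p under 0.05), by a median of 1.91 on the log2 scale. That direction was in part what the study selected. Over the 75 members the median of pri minus wt was -0.93 (-0.04 over all tested probe sets), against -3.01 over the 14. The median of svb minus wt was -0.97 over the members (-0.01 over all tested), against -0.94 over the 14. No test was made of this contrast between sets, because both were chosen on these arrays.

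Level shifts across arrays were looked at for the members as a group. The median over members of the log2 signal minus the wt mean was -1.05 to -0.81 on the pri arrays. It was -1.08 to -0.78 on the svb arrays and -0.15 to 0.16 on the wt arrays. The rule had fixed that this median lies lower on every mutant array than on any wt array. Among the mutant arrays no single one stood apart. Among wt arrays replicate 3 was the highest in 40 of 75 members, and replicates 5, 4 and 1 were the lowest in 27, 22 and 17. The wt arrays on which the members were higher had a lower median over all probe sets but the array controls, with 12.8 for replicate 3 and 15.0 for replicate 5. That median was 15.1 to 17.5 on pri arrays and 9.82 to 15.6 on svb arrays. Replicate 4 of svb was the array farthest from its group over all tested probe sets (-86.9 on principal component 1, which held 57.3%, with the remaining svb arrays from -45.5 to -8.52). It was the highest svb array in 22 members. Without it 127 unlisted probe sets met the rule, among them all 75 members.

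**Figure D5:**
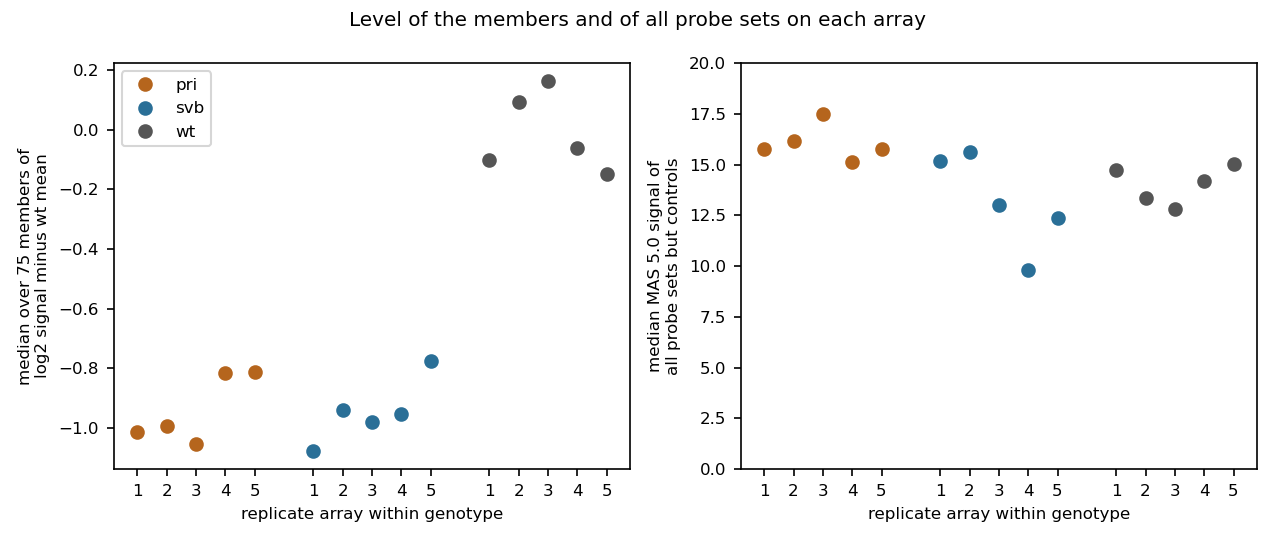
Left, median over the 75 members of the log2 signal minus the wt mean on each array; right, median MAS 5.0 signal of all probe sets but the controls on the same arrays, with pri, svb and wt from left to right. The members lie between -1.08 and -0.78 on mutant arrays and between -0.15 and 0.16 on wt arrays, an order that the rule fixed. The median of all probe sets is lowest on svb replicate 4, at 9.82.

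Control probe sets at both ends of a transcript differed between wt and the mutants. The ratio of 3' to 5' signal of actin was 2.94 to 3.44 in pri, 2.64 to 3.70 in svb and 2.87 to 6.07 in wt, and 4 of 5 wt arrays lay above all 10 mutant arrays. For GAPDH and eIF-4a 3 of 5 wt arrays did so. Within the range of the mutants for all 3 controls was wt replicate 1, with 2.87 for actin, 2.49 for GAPDH and 5.98 for eIF-4a, and wt replicate 4 for GAPDH and eIF-4a. Set against wt replicate 1 alone, the median signal left in the members was 56.6% in pri and 52.5% in svb. With all 5 wt arrays it was 52.8% and 51.0%. The rule had placed wt replicate 1 above all 10 mutant arrays in every member. These shares therefore cannot show what part RNA quality had. The part of RNA quality in the choice of the members was not tested.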

How the data were processed

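RNA was hybridised to Affymetrix Drosophila arrays. The authors deposited linear intensities from MAS 5.0 (Affymetrix Expression Console 1.1), with a trimmed mean of 100 on every array. This scaling takes total signal as equal between genotypes, and dim signals (down to 0.0198) are unstable. Neither detection calls nor scanner files were used, no scan batch is named, and the genome build behind the probes is not given in the sources used here. Groups and replicate numbers came from the sample titles. Of 18952 probe sets, 183 array controls were left out, and 8631 with a highest group mean log2 signal of at least 5 were tested. The level of 5 stands in for background. The 149 rows of the authors' table were matched by the 5 wt values (relative tolerance 1e-05) and gave 148 probe sets, of which 4 rows did not match on all 15 arrays.

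On log2 signals with no offset, limma 3.58.1 (R 4.3.3, eBayes with a trend) fitted 3 genotype means to the 15 arrays together, with p-values adjusted by Benjamini and Hochberg over all tested probe sets and a threshold of 0.05. The fit was run on simulated data with independent noise in each value. Deviations shared by the probe sets of an array were not simulated, so that the run cannot show how they affect the fit. The number of arrays limits the precision, and the p-values measure the spread between samples that the study calls independent. Members and lists were chosen with earlier results of these data known. Described were the 10 members with the lowest share of wt in each mutant, the 10 with the smallest adjusted p in each direction and those nearest the limit; because no table names the probe sets, at most 2 identifiers are printed. Other members, such as the brightest in wt, were chosen after their values were seen. Gene lists, promoter motifs, chromosomes and other probe sets of the same gene could not be analysed without gene names. The alternatives tried were median centring, quantile normalisation, a filter at 6.5 or none, an offset of 16, no trend, array weights, the replicate block and leaving out each array. Restoring the listed probe sets and restricting to bright members were added after seeing the data.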

Additional observations from a re-analysis of the deposited data

Results flagged for a closer look

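Among the 30 members described and the member medians per array, 93 groups of 5 arrays were examined for 1 array whose gap to the nearest other took up more of the group's log2 range than Dixon's 95% limit allows; chance alone gives about 1 in 20. There were 6 such arrays, 5 of them svb arrays. Member 1 had a signal of 2.16 on svb replicate 5, against 0.240 to 0.398 on the other svb arrays. Member 7 had 1.03 on svb replicate 4, against 4.41 to 6.33. Member 8 had 5.68 on svb replicate 1, against 7.99 to 9.11. Member 26 had 58.5 on svb replicate 4, against 24.6 to 31.5. Member 30 had 2.85 on svb replicate 5, against 14.6 to 25.8. Member 29 had 101.6 on pri replicate 5, against 84.1 to 87.3 on the other pri arrays. Of these values, those of members 26 and 29 lie above the level of 32.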

How the results depend on the processing

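The number of members was 74 with quantile normalisation, 82 with an offset of 16 and 99 with no filter, of which 67, 75 and 75 were the same probe sets. It was 44 with median centring (37 the same), 46 with the filter at 6.5, where fewer probe sets enter, and 75 to 127 when 1 array was left out, which loosens the rule. Members lower in pri than in svb numbered 22 with median centring, 7 with the filter at 6.5, 26 with the listed probe sets put back and 9 to 14 with 1 array left out. Members higher in pri numbered 9 with median centring, 9 with the filter at 6.5, 7 with both mutant means at least 5 and 13 to 16 with 1 array left out. With the replicate block these counts were 11 lower and 15 higher. Whether the replicate numbers pair the samples is not stated in the sources used here. The deviations of same-numbered arrays correlated between -0.61 and 0.37, and those of differently numbered arrays between -0.60 and 0.58. Such values cannot decide how the samples were collected. The median of pri minus svb over members was -0.21 with median centring, -0.040 with the listed probe sets put back and 0.05 to 0.15 with 1 array left out. The median of pri minus wt was -1.12 with median centring (-0.24 over all tested probe sets) and -0.77 with an offset of 16, and -0.97 to -0.88 with 1 array left out. The median of svb minus wt was -0.78 with an offset of 16 and -1.03 to -0.94 with 1 array left out. Causes were not tested. Of the 15 members higher in pri, 8 kept the call in every alternative that tested them, as did 9 of the 12 lower in pri. None of the 27 turned its direction. Of the 8, members 5, 7, 8 and 12 had both mutant means under 32, and members 6 and 13 had 1 such mean. Members 9 and 22 were the others. Of the 9, members 14 and 20 had both mutant means under 32, and member 26 had 1. The promoter motif comparison was not run. Dim signals and 5 arrays per genotype limit all values.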
